A study of Homo sapiens with 12 samples.

Results

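The comparison described here sets 2 NFE2L1 knockout lines of A549, an established human lung adenocarcinoma cell line, against each other without drug. The lines are called NFE2L1 KO1 and NFE2L1 KO2 in the labels. All genes with a mean FPKM (a read level per gene length and library size) of at least 1 over the 12 libraries of the series were taken, which were 12194 of 58676 genes. The KO1 library numbered R1 was paired with the KO2 library numbered R1, and R2 with R2. Differences are KO1 minus KO2 throughout, so a positive value is higher in KO1.

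NFE2L1 (also called NRF1) is a transcription factor of the cap'n'collar family that is made in the endoplasmic reticulum membrane. Its active form is released by extraction, deglycosylation and proteolytic cleavage, and it acts with small MAF proteins on antioxidant response elements, among them those of proteasome subunit genes. Its relative NFE2L2 (NRF2) binds like elements in genes of glutathione, NADPH and aldo-keto reductase metabolism. A549 cells are known for constitutively high NRF2 activity, owing to a mutation of its inhibitor KEAP1. A549 is an aneuploid line. In knockout studies more than 1 edited line is commonly compared.

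The series holds 6 groups of 2 libraries, from the control line (Control1), NFE2L1 KO1 and NFE2L1 KO2. Each line received vehicle (DMSO) or bortezomib, a proteasome inhibitor, at 200 nM for 4 h. All lines were A549 cells grown in DMEM with 10% FBS. The main comparison sets the 4 vehicle libraries of the KO lines against each other, in a model fitted to all 12 libraries. The labels do not give the guide RNAs, the alleles, or whether a line is 1 clone. They do not say whether the 2 libraries of a group came from separate cultures, so the spread between libraries may be technical. The p-values measure the spread within all 6 groups that is left once a shift shared by libraries of the same number is removed (4 residual degrees of freedom). They do not measure the full spread between R1 and R2. Assigned reads were 13879890 and 18564919 in KO1 (R1, R2) and 21545738 and 19261250 in KO2, within 13211608 to 23819258 over the series. Across genes, the R1 libraries of KO1 and KO2 had a Pearson's r of 0.97 on the log2(FPKM + 1) scale, and their R2 libraries 0.959. It was only 0.842 between R1 and R2 of KO1 and 0.894 between R1 and R2 of KO2, so libraries of different lines with the same number were more alike than libraries of the same line. Mitochondrially encoded genes took 6.76% and 19.3% of reads in KO1 (R1, R2) against 5.79% and 14.7% in KO2. The replicate number was therefore kept as a block in the model, and results without it are given beside it. The keratins KRT8 (436 and 238 FPKM in KO1, 703 and 439 in KO2) and KRT18 marked the cells as epithelial in both lines. The leukocyte marker PTPRC was at most 0.0602 FPKM, the 7 endothelial markers summed to at most 0.286 FPKM, and 9 fibroblast markers summed to 4.31 and 5.54 FPKM in KO1 and 5.57 and 4.96 in KO2. Within that sum THY1 was at 2.01 and 2.51 FPKM in KO1 and 0.102 and 0.193 in KO2, and COL1A1 at 1.42 and 1.56 against 4.32 and 3.59. A list of 12 immune markers summed to 4.85 and 6.82 FPKM in KO1 and 2.02 and 4.21 in KO2, mostly from CD14 and ITGAM, with CD3D at 0 in all 4 libraries. The part of other cells in the results below was not tested.

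The targeted gene itself differed between the knockout lines. NFE2L1 (ENSG00000082641, chr17:48048329-48061487, plus strand, coordinates of the deposited table) stood at 8.45 and 14.8 FPKM in KO1 (R1, R2), at 18.6 and 33.6 in KO2, and at 72.7 and 151 in the control line (unnumbered library, R2). Both knockout lines were below both control libraries, and KO1 was the lower line in each pair. KO1 held 11.6% of the unnumbered control library in R1 and 9.82% of the control in R2, and KO2 held 25.6% and 22.3%. The difference was -1.09 ± 0.16 (SE) on the log2(FPKM + 1) scale with a limma adjusted p of 0.00941. The call was lost without the replicate block (limma adjusted p = 1), and the limma adjusted p ranged from 0.046 to 0.166 when the 4 vehicle KO libraries were left out in turn. With bortezomib the gene was at 27 and 35.8 FPKM in KO1 and 36.7 and 50.8 in KO2, a difference of -0.46 (limma adjusted p = 0.23). Reads of the gene do not show whether its protein is made, and another annotated gene overlaps it on the opposite strand.

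Of the other measured genes of its family and partners, NFE2L3, a close and likewise membrane-bound relative, was higher in KO1. It measured 17.8 and 22.9 FPKM in KO1, 8.82 and 11.8 in KO2, and 9.59 and 26.2 in the control line (difference 0.92 ± 0.15, limma adjusted p = 0.0163). NFE2L2 (-0.52, limma adjusted p = 0.111), KEAP1 (-0.35), MAFK (-0.18), MAFG (-0.16), BACH1 (0.00) and MAFF (0.30) did not pass. None of 12 genes that process or extract NFE2L1 in the endoplasmic reticulum passed either, with differences from -0.30 (HERPUD1) to 0.27 (SEL1L).

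Over all genes, 366 of 12194 passed a limma adjusted p of 0.05 (3%), with 172 higher in KO1 (1.41%) and 194 lower (1.59%). The smallest difference among them was 0.54, the median size 1, and 183 exceeded 1 on the log2 scale. All 366 had the same sign in the R1 and the R2 pair, which the test favours, and 329 were protein coding. Without the replicate block 8 genes passed (0.0656%), and all 8 were among the 366. They were a U8 RNA, CES1, CPLX2, SPARC, UGT1A9 and PLCXD3, lower in KO1, and PTX3 and G0S2, higher in KO1. The count fell to 85 without KO1 R2, 69 without KO2 R1 and 55 without KO2 R2, and was 285 without KO1 R1 (82 higher and 203 lower). The unadjusted p was under 0.05 for 1765 genes.

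**Figure D1:**
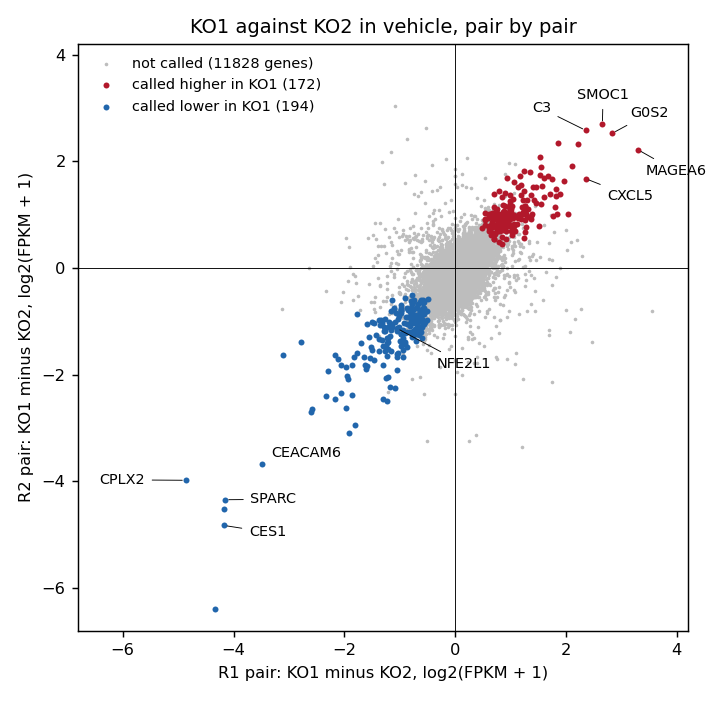
Difference between KO1 and KO2 in vehicle for 12194 genes, log2(FPKM + 1), in the R1 pair (x axis) and the R2 pair (y axis). Red points are 172 genes called higher in KO1, blue points 194 called lower, grey points were not called; called genes lie along the diagonal with CES1, CPLX2 and SPARC far to the lower left and MAGEA6, G0S2 and SMOC1 to the upper right.

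The 12 called genes lowest in KO1 against KO2 were transcripts of enzymes, secreted, adhesion and vesicle proteins, 3 short RNA genes (described last) and AC005336.4. CES1, a carboxylesterase that hydrolyses drugs and lipid esters, was at 0 and 0.348 FPKM in KO1 and at 17.1 and 37.2 in KO2, while the control line had 0.257 and 0.237. The high line was thus KO2, with KO1 and the control both near 0 (difference -4.50 ± 0.21, limma adjusted p = 2.84e-05). In bulk RNA, fewer cells that make a transcript and less of it per cell cannot be told apart. SPARC, a collagen-binding matricellular protein, measured 0.552 and 0.524 FPKM in KO1, 26.6 and 29.9 in KO2, and 1.76 and 1.47 in the control line. Again KO2 stood alone, with a difference of -4.25 ± 0.17 (limma adjusted p = 1.13e-05, and 0.000102 without the block). CPLX2, a complexin that binds the vesicle fusion machinery, showed the other order, with 1.82 and 4.38 FPKM in KO1 against 80.8 and 83.8 in KO2 and 82 and 55 in the control line. Here KO1 was the line that stood apart (difference -4.42 ± 0.30, limma adjusted p = 0.000176).

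CEACAM6, a cell adhesion glycoprotein of the carcinoembryonic antigen family, measured 2.71 and 26.9 FPKM in KO1 and 40.5 and 355 in KO2 (difference -3.58 ± 0.18, limma adjusted p = 3.94e-05). Its R2 level was far above R1 in both lines, yet both KO1 libraries lay below both KO2 libraries, and the pairs differed by -3.48 and -3.67. NRCAM, a neuronal cell adhesion molecule, was at 7.99 and 16.4 FPKM in KO1, 44.5 and 89.9 in KO2 and 62.4 and 114 in the control line (difference -2.36). CYP4F11, a fatty acid and vitamin K hydroxylase, was at 0.483 and 3.38 FPKM in KO1 and 7.99 and 27.6 in KO2 (difference -2.65). AC005336.4 lies next to CYP4F11 and moved with it (-2.38). BAAT, which conjugates bile acids with glycine or taurine, was at 0.191 and 0.207 FPKM in KO1 and 9.23 and 2.74 in KO2 (difference -2.37, limma adjusted p = 0.00798).

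UGT1A9, a glucuronosyltransferase, was at 0 and 0.223 FPKM in KO1 and at 5.01 and 6.64 in KO2 (difference -2.62). It shares its 3' exons with the other UGT1A genes on the same strand, so its count is uncertain. A U8 RNA gene (ENSG00000239148, chr10:5004710-5004842) within AKR1C1, and overlapping AKR1C2 on the other strand, had 0 reads in both KO1 libraries and 19.2 and 82.8 FPKM in KO2. Against a floor of 3 reads per library it was at least 11.8-fold lower in the R1 pair and 68.1-fold in the R2 pair. A second gene named U8 (ENSG00000238840), within AKR1C2, was at 0 and 1.62 FPKM in KO1 and 17.1 and 58.9 in KO2. Reads of these short genes cannot be told apart from those of their hosts, which are described below. MIR196A1, a microRNA hairpin within HOXB7, rested on 3 reads in KO1 and 35 in KO2, a ratio of 9.28 (95% exact interval 2.92 to 47.1, counting error only). CES1, UGT1A9 and the U8 gene in AKR1C1 were the 3 called genes with under 0.5 FPKM in both libraries of 1 line and at least 5 in both of the other, and in all 3 the low line was KO1.

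The largest gains in KO1 included secreted and membrane proteins and 1 cancer-testis gene. MAGEA6, a gene normally silent outside the germ line, was at 27 and 10.3 FPKM in KO1 and 1.84 and 1.42 in KO2, and was listed at 0 in both control libraries (difference 2.76 ± 0.29, limma adjusted p = 0.002). MAGEA3 went the same way, with 3.95 and 1.6 FPKM in KO1, 0.208 and 0.29 in KO2 and 0 in the control line (1.52, limma adjusted p = 0.0183). The genes are near-identical copies, so how reads were split between them is uncertain. PRAME, the remaining measured cancer-testis gene of 35 listed, differed by 0.03.

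G0S2, an inhibitor of the triglyceride lipase ATGL, was at 29.5 and 18.2 FPKM in KO1, 3.27 and 2.34 in KO2 and 0.97 and 1.05 in the control line (difference 2.68 ± 0.22, limma adjusted p = 0.000469). C3, the central complement component, was at 21 and 30.3 FPKM in KO1 and 3.29 and 4.24 in KO2 (difference 2.47 ± 0.15, limma adjusted p = 7.86e-05). The control line, at 1.79 and 5.12, lay with KO2. CDCP1, a SRC-binding transmembrane glycoprotein, was at 45.6 and 51 FPKM in KO1 and 8.97 and 9.38 in KO2 (difference 2.27). PTX3, a soluble pattern recognition protein, was at 4.42 and 3.25 FPKM in KO1 and 0.263 and 0.134 in KO2 (difference 2.00).

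For SMOC1, BMPER and GPC6 the control line lay nearer KO1, and KO2 was the low line. SMOC1, a calcium-binding matricellular protein, was at 9.19 and 13.1 FPKM in KO1, 0.616 and 1.19 in KO2 and 7.68 and 12.1 in the control line (difference 2.67). BMPER, a secreted regulator of bone morphogenetic proteins, was at 6.36 and 7.87, at 1.02 and 0.749, and at 3.1 and 7.78 FPKM in the same order. GPC6, a glypican, was at 2.28 and 4.71 FPKM in KO1, 0.136 and 0.345 in KO2 and 5.84 and 9.85 in the control line. LINC01468, a long noncoding RNA, was lowest in the control line, with 27.4 and 24.8 FPKM in KO1, 6.27 and 7.28 in KO2 and 0.357 and 0.545 in the control. Over all called genes the control mean was nearer KO2 in 218 of 366 (59.6%, against 53.2% of all genes tested) and nearer KO1 in 148, and it lay between the lines in 197.

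**Figure D2:**
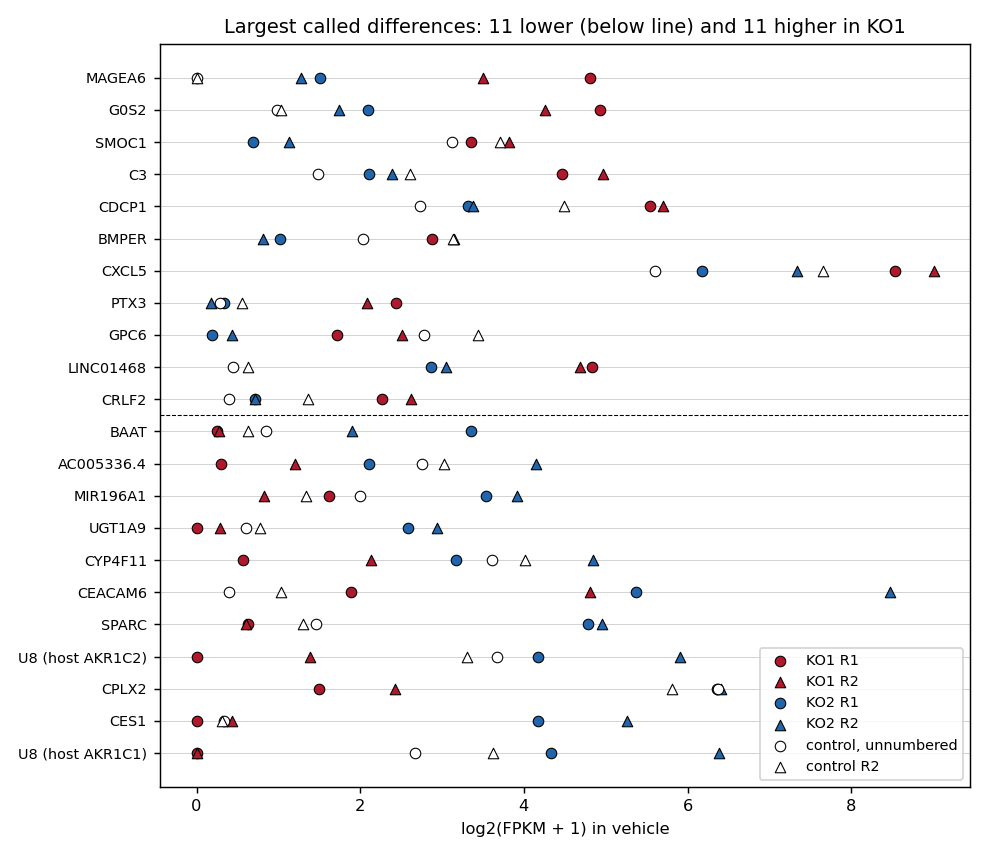
Levels in vehicle, log2(FPKM + 1), of the 11 called genes lowest in KO1 against KO2 (below the dashed line) and the 11 highest (above it), with 1 point per library. Red is KO1, blue KO2 and white the control line, with circles for R1 or the unnumbered control and triangles for R2; in CES1 and SPARC only KO2 is high, while in CPLX2 the control lies with KO2.

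The differences were not spread evenly over the genome. For each chromosome the median of the gene differences was taken in each of the 4 pairs of libraries (R1 and R2 in vehicle, R1 and R2 in bortezomib) and set against the all-gene median of that pair. On 19 chromosomes, the X outside its first pseudoautosomal region included and the Y not, this value lay between -0.04 and 0.08 in every pair. Chromosome 18 stood at 0.52, 0.43, 0.49 and 0.46, a 1.39-fold higher FPKM + 1 in KO1 at the mean. Of its 159 tested genes, 154 were above the all-gene median in vehicle. Chromosome 15 stood at -0.22, -0.18, -0.27 and -0.28, and chromosome 19 at -0.20, -0.18, -0.14 and -0.15. Chromosome 2 was lower by a smaller amount, between -0.11 and -0.08. Only RNA was measured, genes of a chromosome are not replicates, and no test was made of these medians.

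**Figure D3:**
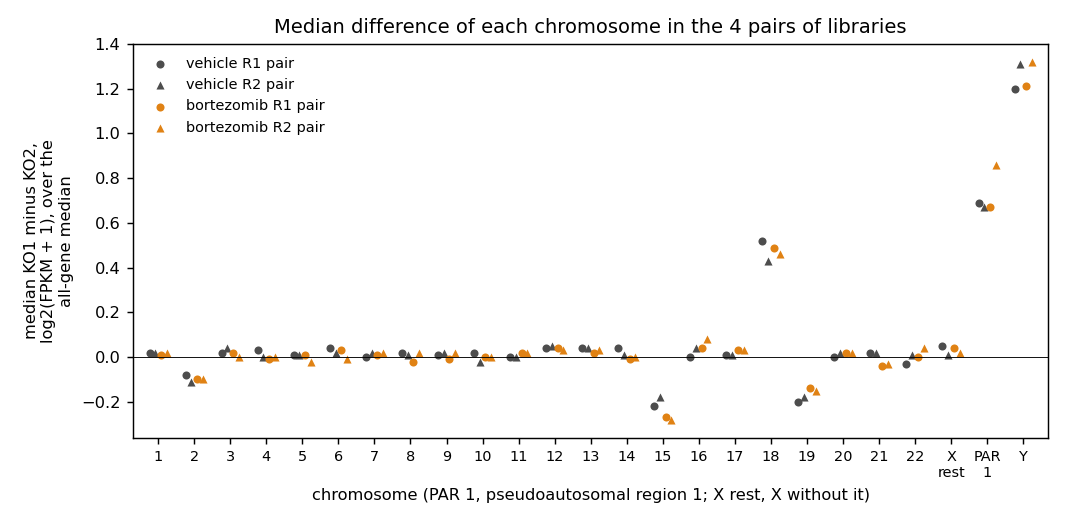
Median difference KO1 minus KO2 of the tested genes of each chromosome, log2(FPKM + 1) over the all-gene median, in 4 pairs of libraries (grey vehicle, orange bortezomib, circles R1, triangles R2). Chromosome 18, the first pseudoautosomal region (PAR 1) and the Y lie at 0.43 or more in all 4 pairs, chromosomes 15 and 19 at -0.14 or less.

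Along chromosome 18 the difference held from end to end, with medians of 0.43 to 0.61 at the mean of the 4 pairs in its 10 Mb windows, of which 3 held at least 20 tested genes. Of its 22 called genes (13.8% of those tested), 20 were higher in KO1. By mean FPKM its leading genes were MYL12B, a myosin light chain (140 and 34.6 FPKM in KO1, 106 and 37.2 in KO2, difference 0.15, not called), DSG2 and LMAN1. DSG2, a desmosomal cadherin, was at 69.8 and 129 FPKM in KO1 and 35.6 and 70.4 in KO2 (0.90, limma adjusted p = 0.0183). LMAN1, a cargo receptor from the endoplasmic reticulum to the Golgi, was at 52.8 and 106 FPKM in KO1 and 29.5 and 53.9 in KO2 (0.89, limma adjusted p = 0.0242). CDH2 (N-cadherin), LAMA3 and NPC1 are also on this chromosome and were higher by 1.02, 1.12 and 0.91. The 2 called lower were GACAT2 (-1.62) and ALPK2 (-0.87). NPC1, GACAT2 and ALPK2 were picked after their values were seen.

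Chromosome 19 was divided. Its windows from 0 to 20 Mb had medians of 0.02, while those from 30 to 40, 40 to 50 and 50 to 60 Mb had -0.41, -0.33 and -0.24 at the mean of the 4 pairs. The 16 tested genes from 20 to 30 Mb stood at -0.27, with 2 called lower. By pair, the window from 0 to 10 Mb stood at -0.05 and -0.06 in vehicle and at 0.08 and 0.1 with bortezomib. That from 10 to 20 Mb stood at -0.03 and 0.0 in vehicle and at 0.04 and 0.06 with bortezomib. Of 465 tested genes that start beyond 30 Mb, 38 were called lower in KO1 and 1 higher, and of the 368 others 6 were lower and 4 higher. FTL, the ferritin light chain and the leading gene of the chromosome by mean FPKM, was at 2880 and 1093 FPKM in KO1 and 5276 and 2515 in KO2 (-1.04, limma adjusted p = 0.0463). RPL13A, a ribosomal protein in the same arm, differed by -0.68 (limma adjusted p = 0.173), and EEF2, an elongation factor near the opposite end of the chromosome, by -0.12 (limma adjusted p = 0.822). Of the 8 windows of chromosome 15 with at least 20 tested genes, 7 were lower (-0.34 to -0.25 at the mean of the 4 pairs), while the 69 genes from 40 to 50 Mb stood at 0.04 and held no call. The last window, from 100 Mb, had 14 tested genes and stood at -0.26. Of 404 tested genes on chromosome 15, 14 were called (3.47%), near the 3% of all genes tested. Of these, 13 were lower in KO1 and 1 higher. ANXA2, a membrane-binding annexin, was at 304 and 163 FPKM in KO1 and 470 and 291 in KO2 (-0.73, limma adjusted p = 0.0295). PKM (pyruvate kinase, -0.79) and RPL4 (-0.72) did not pass.

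**Figure D4:**
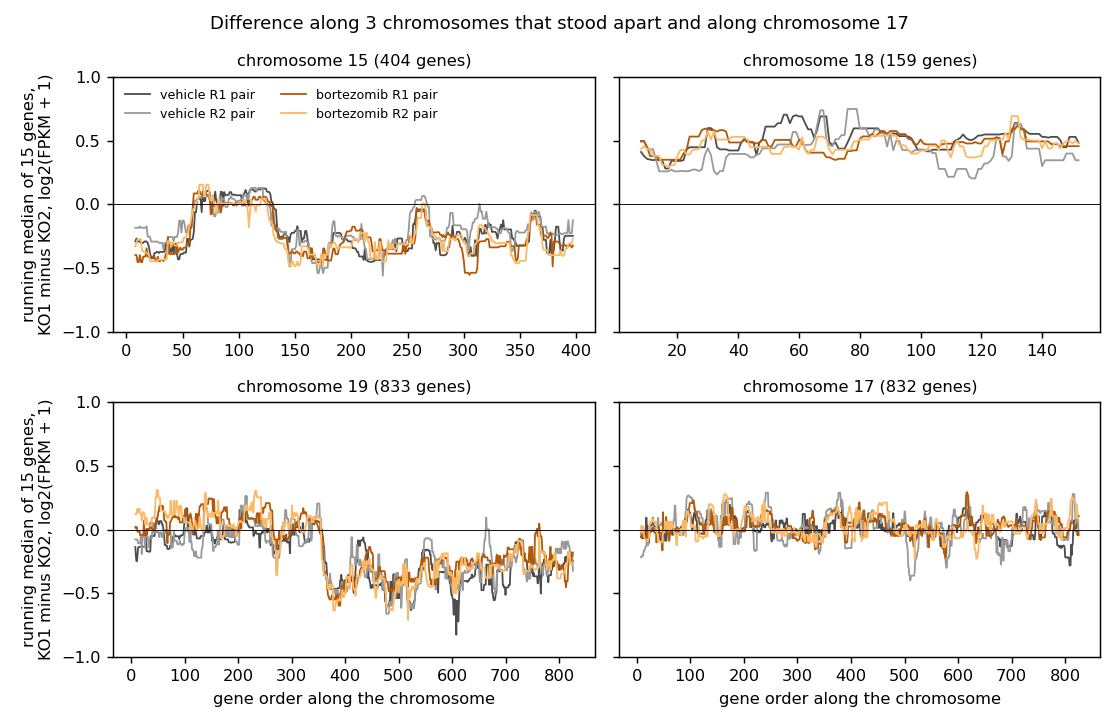
Running median of 15 neighbouring tested genes, KO1 minus KO2 in log2(FPKM + 1) over the all-gene median, against gene order, in 4 pairs of libraries. Chromosome 18 lies above 0 throughout, chromosome 19 steps below 0 within its length, chromosome 15 is below 0 apart from 1 block of genes, and chromosome 17, shown because it carries NFE2L1 and has nearly as many tested genes as chromosome 19, stays near 0.

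On the Y, all 11 tested genes were called higher in KO1, with differences from 1.03 to 1.64, among them RPS4Y1 (1.27), the helicase gene DDX3Y (1.64) and TXLNGY (1.49). The median over the Y was at most 1.32 in the 4 pairs, 2.40-fold in FPKM + 1 at their mean. The first pseudoautosomal region, which X and Y share and whose reads cannot be assigned to either, showed a smaller difference of 0.67 to 0.86, and 7 of its 16 tested genes were called, all higher in KO1. CRLF2, the receptor chain for thymic stromal lymphopoietin, was at 3.8 and 5.15 FPKM in KO1 and 0.647 and 0.646 in KO2 (1.72, limma adjusted p = 0.00468). CSF2RA, the receptor chain for GM-CSF, was at 4.55 and 9.61 FPKM against 1.55 and 5 (0.97), and PLCXD1 at 43.9 and 33.8 against 20.8 and 19.9 (0.89). IL3RA was the exception, at -0.05. The rest of the X stood between 0.01 and 0.05.

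Set against the control line in vehicle, KO1 carried most of these offsets. In KO1 the medians over the all-gene median in the R1 (against the unnumbered control) and R2 libraries were 0.49 and 0.41 on chromosome 18, -0.28 and -0.25 on 15, -0.19 and -0.09 on 19, and 1.33 and 1.35 on the Y. In KO2 they were -0.00 and -0.03 on chromosome 18, -0.04 and -0.05 on 15, 0.04 and 0.08 on 19, and -0.01 and 0.15 on the Y. These values share the control libraries. Chromosomes 12 and 2 were offset from the control line in both knockout lines, at 0.38 and 0.35 in KO1 and 0.31 and 0.33 in KO2 on chromosome 12, and at -0.37 and -0.38 in KO1 and -0.28 and -0.30 in KO2 on chromosome 2. In all, 103 of the 366 called genes (28.1%) lay on chromosomes 15, 18, 19 or Y or in the first pseudoautosomal region, which hold 1423 (11.7%) of the genes tested. With those genes left out before the adjustment 229 genes passed. In another fit each library's 10 Mb window median was subtracted, or the chromosome median where a window held under 20 tested genes. In that fit 197 passed, of which 173 were among the 366.

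Gene lists are described by their counts, to be read beside the 3% of all genes tested that were called (1.41% higher in KO1, 1.59% lower). Of 59 calls in lists 1, SPARC, passed without the replicate block. Among genes grouped by function, the largest number of lower calls fell to oxidative stress genes regulated by NRF2. Of 24 tested, 7 were called lower (29.2%, against 3% of all genes tested) and none higher. The median difference was -0.59 against -0.05 for all genes, and 23 were below 0. GPX2, a glutathione peroxidase, was at 36.5 and 49.1 FPKM in KO1, 182 and 190 in KO2 and 30.5 and 26.3 in the control line (difference -2.11 ± 0.33, limma adjusted p = 0.0123), so KO2 was the high line. The aldo-keto reductases followed another order. AKR1C1 was at 6.23 and 8.47 FPKM in KO1, 30.5 and 30 in KO2 and 54.3 and 20 in the control line (-1.92 ± 0.20, limma adjusted p = 0.00181). AKR1C3 (-1.75), AKR1C2 (-1.35) and AKR1B10 (-1.18) also passed, AKR1B10 with 802 and 546 FPKM in KO1 and 1597 and 1407 in KO2. For the 3 AKR1C genes both KO1 libraries were below every KO2 and control library, while for AKR1B10 KO1 overlapped the control line (1397 and 730 FPKM). AKR1C genes are close paralogs, and reads may be split among them.

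HMOX1, which degrades heme, was at 20.7 and 18.5 FPKM in KO1, 47.1 and 42.5 in KO2 and 147 and 47.1 in the control line (-1.15, limma adjusted p = 0.0227). FTL, the seventh, is 1 of the genes of chromosome 19 described above. NQO1 (-0.78, limma adjusted p = 0.1), GCLM (-0.65), PGD (-0.60, limma adjusted p = 0.056), TXNRD1 (-0.46), SRXN1 (-0.39) and GCLC (-0.37) did not pass. The list kept a median between -0.63 and -0.45 under the pseudocount and scaling alternatives, and had 8, 1, 1 and 2 called genes when KO1 R1, KO1 R2, KO2 R1 or KO2 R2 was left out, and 0 without the block.

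Of 25 other enzymes of drug and aldehyde metabolism, 5 (20%) were called lower in KO1 and none higher, against 1.59% and 1.41% of all genes, and 20 did not pass (median -0.45). Besides CYP4F11 they were CYP4F3 (-1.47), ALDH1A1, ALDH3A1 and CYP2S1 (-0.84). ALDH1A1, a retinaldehyde dehydrogenase, was at 805 and 468 FPKM in KO1, 2087 and 923 in KO2 and 1846 and 778 in the control line (-1.18, limma adjusted p = 0.00721). ALDH3A1 was at 213 and 172, at 445 and 390, and at 204 and 175 FPKM (-1.11, limma adjusted p = 0.00667), with KO2 as the high line. CYP4F11, CYP4F3 and CYP2S1 lie on chromosome 19, and with the genes of the chromosomes named above left out 2 of the list were called.

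Proteasome subunit genes, the best known targets of NFE2L1, differed little. Of 31 tested, 2 (6.45%, against 1.59% of all genes) were called lower and none higher, with a median of -0.22 and 28 below 0. The 2 were PSMC4, an ATPase of the 19S particle (67.8 and 25.1 FPKM in KO1, 109 and 54.5 in KO2, 112 and 53.7 in the control line, -0.88, limma adjusted p = 0.0305), and PSMD8, a 19S lid subunit (55.6 and 20.6 against 88 and 40.8 FPKM, -0.80, limma adjusted p = 0.0445). Both lie beyond 30 Mb on chromosome 19. The list's median was -0.07 in the R1 pair and -0.39 in the R2 pair. Cytosolic ribosomal protein genes had no call among 79, with a median of -0.30 (-0.22 in the R1 pair, -0.38 in the R2 pair) and 73 below 0. Over all genes tested the median was 0.03 in the R1 pair and -0.12 in the R2 pair, and 7099 of 12194 were below 0. Mitochondrially encoded protein genes had no call among 13 and a median of 0.25, beside the larger share of mitochondrial reads in KO1 in each pair. The mitochondrial ribosomal RNA MT-RNR2, noticed after its values were seen, was called higher (0.66, limma adjusted p = 0.0376). The part of that share in the other values was not tested, and 388 genes passed with mitochondrial genes left out and the rest rescaled.

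Of 27 integrins, laminins and collagens, 7 were called higher in KO1 (25.9%, against 1.41% of all genes) and none lower, and 20 did not pass. The median was 0.40, with 21 above 0 and 6 below, and by pair it was 0.39 and 0.34 in vehicle and 0.10 and 0.09 with bortezomib. COL6A1, a chain of microfibrillar collagen VI, was at 31.1 and 40 FPKM in KO1, 14.6 and 15.7 in KO2 and 16.2 and 31.4 in the control line (1.17 ± 0.17, limma adjusted p = 0.00941), and its neighbour COL6A2 differed by the same 1.17. LAMB3 (1.15), a chain of laminin 332, was at 53.5 and 65.4 FPKM in KO1 and 18 and 37.6 in KO2. LAMA3 (1.12), another chain of the same laminin, lies on chromosome 18. COL12A1 (0.92), the fibronectin receptor chain ITGA5 (0.89) and COL4A5 (0.79) also passed. COL1A1 was the lowest of the list, at 1.42 and 1.56 FPKM in KO1 and 4.32 and 3.59 in KO2 (-0.99, not called). The count was 4, 1, 1 and 0 when KO1 R1, KO1 R2, KO2 R1 or KO2 R2 was left out, and 0 without the block.

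The epithelial list leaned lower in KO1, while calls among mesenchymal genes went both ways. The epithelial median was -0.48, with 13 of 19 below 0, against -0.05 for all genes tested. By pair it was -0.32 and -0.53 in vehicle and -0.44 and -0.38 with bortezomib. The mesenchymal median was -0.17, with 11 of 16 below 0. Of 19 epithelial genes 3 (15.8%, against 1.59% of all genes) were called lower in KO1, KRT18 (353 and 212 FPKM in KO1, 586 and 419 in KO2, -0.86), KRT8 (-0.79) and EPCAM (1.57 and 3.4 against 3.45 and 6.93 FPKM, -0.82). CDH1 (E-cadherin) was the highest of the list at 0.60 and was not called. Of 16 mesenchymal genes 4 (25%) were called, where SPARC and fibronectin (FN1) were lower and CDH2 and TWIST1 higher. FN1 was at 8.25 and 26.8 FPKM in KO1, 25.2 and 80.2 in KO2 and 17.2 and 32.2 in the control line (-1.52 ± 0.17, limma adjusted p = 0.00224). TWIST1, a basic helix-loop-helix factor, was at 4.82 and 2.7 FPKM in KO1, 1.23 and 0.843 in KO2 and 0.888 and 0.736 in the control line (1.19, limma adjusted p = 0.0342). A further list held airway and alveolar markers together with other epithelial genes. Of its 14 tested members 3 (21.4%) were called lower and none higher, with 11 below 0 and 3 above. The 3 were the mucin MUC13 (-1.31), the nuclear receptor HNF4A (-1.26) and the trefoil peptide TFF1 (-1.12). They are not specific markers of airway or alveolus. SCGB3A1 was the highest of the list at 0.60 and was not called.

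Plasma protein genes, which A549 cells express at low to moderate levels, changed in both directions, with 3 of 12 lower and 2 higher in KO1 (41.7% called, against 3% of all genes). The fibrinogen chains FGB (0.0532 and 1.23 FPKM in KO1, 1.39 and 9.41 in KO2, -1.70) and FGA (-1.37) and the apolipoprotein APOH (-1.12) were lower. C3 and the complement protease C1S (0.79) were higher. All 13 measured antigen presentation genes were above 0 (0.12 to 0.78, median 0.42), with the peptidase ERAP1 called (0.76, 7.69% of the list).

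In other lists a few members passed, and shares are again to be read beside the 3% of all genes tested. STC2 (1.35) was higher and the amino acid transporter SLC7A5 (-0.70) lower among 20 ATF4 targets (10% called). ADM (adrenomedullin, -1.24) and GPI (-0.93, on chromosome 19) were lower and P4HA1 (0.69) higher among 21 hypoxia and glycolysis genes (14.3%). The semaphorins SEMA3A (0.85) and SEMA3F (0.78) and the ephrin EFNB1 (0.88) were higher and the semaphorin receptor PLXND1 (-1.37) lower among 26 axon guidance genes (15.4%). In some lists only 1 gene passed. Among these genes were CCND3 (cyclin D3, -1.24) of 27 cell cycle genes (3.7%) and GLUL (glutamine synthetase, -1.19) of 9 genes of nitrogen metabolism (11.1%). Others were ZDBF2 (-1.33) of 17 imprinted genes (5.88%) and DDX58 (RIG-I, 0.81) of 21 interferon-stimulated genes (4.76%). The shares of the cell cycle and interferon lists were near that of all genes. No call was made among 23 p53 targets, 13 heat shock genes, 17 HOX genes and 7 clustered protocadherins.

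**Figure D5:**
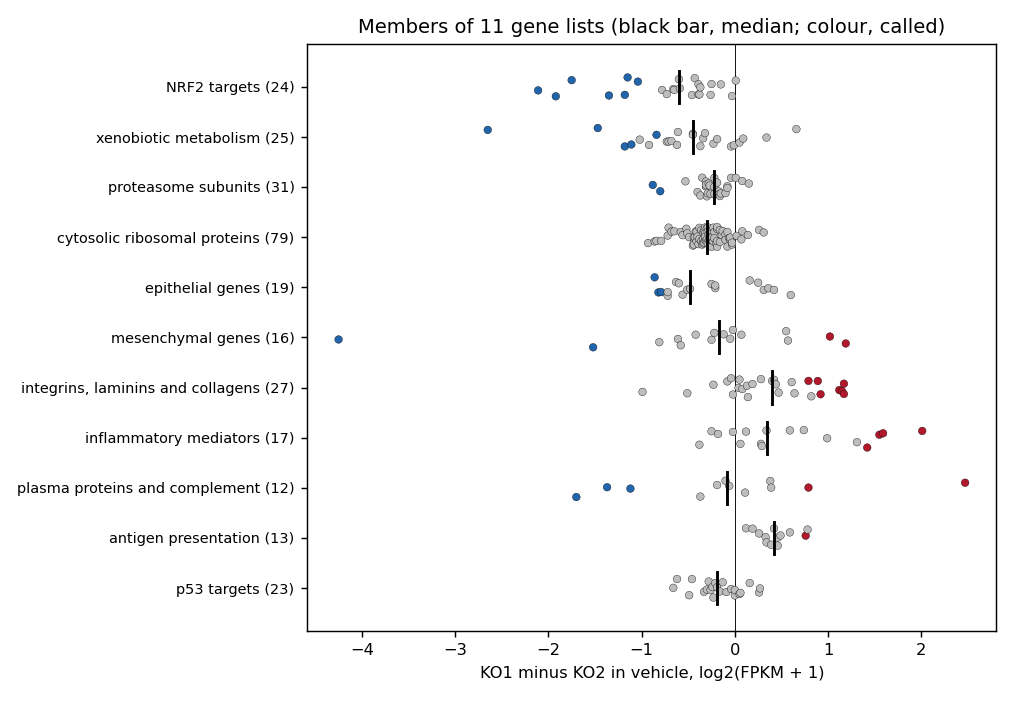
KO1 minus KO2 in vehicle, log2(FPKM + 1), for the tested members of 11 gene lists (number in parentheses), with 1 point per gene, the median as a black bar, red for called higher in KO1, blue for called lower and grey for not called. The median is -0.59 for NRF2 targets and 0.40 for integrins, laminins and collagens, while proteasome subunits gather near -0.22.

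The inflammatory mediators called between the lines were 4 of 17 (23.5%, against 3% of all genes), all higher in KO1, and all chemokines of 1 cluster on chromosome 4, which bind the receptor CXCR2 and attract neutrophils. Chemokine genes of this family are known targets of NF-kappaB. The 250 bases before the start of each, which show what their promoters have in common, are printed from RefSeq (GRCh38.p14, 5' to 3' in the direction of transcription). Capitals mark GGGAATTTCCC, the longest run of bases present in all 4, which has the form of an NF-kappaB motif. CXCL1 lies on the plus strand (chr4:73869143-73869392), CXCL2 (chr4:74099196-74099445), CXCL3 (chr4:74038690-74038939) and CXCL5 (chr4:73998678-73998927) on the minus strand.
CXCL1: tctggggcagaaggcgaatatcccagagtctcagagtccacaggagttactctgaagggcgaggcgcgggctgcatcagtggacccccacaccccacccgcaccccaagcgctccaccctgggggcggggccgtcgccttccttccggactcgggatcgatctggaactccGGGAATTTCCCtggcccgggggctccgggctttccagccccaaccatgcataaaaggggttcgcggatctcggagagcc
CXCL2: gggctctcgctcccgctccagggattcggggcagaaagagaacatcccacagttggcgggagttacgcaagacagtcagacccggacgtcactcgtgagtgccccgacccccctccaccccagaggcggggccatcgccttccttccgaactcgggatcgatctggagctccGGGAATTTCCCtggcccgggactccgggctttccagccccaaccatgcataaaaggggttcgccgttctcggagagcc
CXCL3: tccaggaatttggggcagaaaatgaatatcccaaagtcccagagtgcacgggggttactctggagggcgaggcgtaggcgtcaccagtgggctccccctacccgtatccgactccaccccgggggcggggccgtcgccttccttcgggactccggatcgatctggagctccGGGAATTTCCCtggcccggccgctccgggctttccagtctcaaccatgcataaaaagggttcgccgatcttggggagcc
CXCL5: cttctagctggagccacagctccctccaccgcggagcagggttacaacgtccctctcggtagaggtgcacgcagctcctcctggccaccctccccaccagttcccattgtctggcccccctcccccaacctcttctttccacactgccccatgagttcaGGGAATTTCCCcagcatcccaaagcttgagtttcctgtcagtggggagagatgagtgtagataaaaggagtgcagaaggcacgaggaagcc

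The run began 79, 78, 79 and 91 bases before the start of CXCL1, CXCL2, CXCL3 and CXCL5. It was taken from these 4 sequences, so its presence in them is no finding. Searched on both strands, it was in 27 of 35116 promoter windows of the same length (0.0769%), and in none of the other 9 tested inflammatory genes with a promoter entry. Because the run was chosen from the 4 called genes, its absence from the other 9 is no finding either. Only this exact run was searched, so a promoter without it may hold another form of an NF-kappaB motif. The 4 genes are paralogs, so the 4 runs are not independent. Aligned on the motif without gaps, CXCL1 and CXCL3 were identical at 64.8% of bases and CXCL1 and CXCL5 at 34.5%. A match is not evidence of binding.

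CXCL5 was the most abundant of the 4, at 369 and 513 FPKM in KO1, 71.4 and 160 in KO2 and 47.5 and 201 in the control line (difference 2.01 ± 0.28, limma adjusted p = 0.00769). CXCL1 was at 9.28 and 11.6 FPKM in KO1, 1.9 and 3.93 in KO2 and 1.17 and 7.01 in the control line (1.59 ± 0.22, limma adjusted p = 0.00721). KO1 was above KO2 and the control line in every library of both genes. CXCL2 (7.88 and 10.4 FPKM in KO1, 2.01 and 2.94 in KO2, 1.55) and CXCL3 (5.26 and 3.74 against 0.753 and 1.36 FPKM, 1.42) also passed. CXCL8 was at 5.89 and 5.57 FPKM in KO1 and 1.53 and 1.92 in KO2, a difference of 1.31 that did not pass in vehicle (limma adjusted p = 0.155). Among the other 12 of 17 mediators tested, the differences ran from -0.38 (PTGS2) to 0.99 (CSF2) and none was called. The list held 4, 3, 1 and 1 called genes when KO1 R1, KO1 R2, KO2 R1 or KO2 R2 was left out.

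Of 5 called NRF2 targets with a promoter entry, only GPX2 held the core of the antioxidant response element, TGACNNNGC on either strand. It is shown for that reason (chr14:64942746-64942995, GRCh38.p14, minus strand, match in capitals on the opposite strand).
GPX2: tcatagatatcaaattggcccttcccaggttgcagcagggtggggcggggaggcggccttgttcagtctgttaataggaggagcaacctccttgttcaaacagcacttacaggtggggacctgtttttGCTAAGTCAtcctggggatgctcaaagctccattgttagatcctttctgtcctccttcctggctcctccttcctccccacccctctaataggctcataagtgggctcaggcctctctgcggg

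That core was in 3830 of 35116 windows (10.9%), in 5 of 18 tested NRF2 targets with an entry and in 1 of the 5 called ones. The called genes HMOX1 and AKR1B10 had no entry and were not searched. Some genes had more than 1 window, so the counts by gene are not on the same footing as the share of windows. Elements farther from the start than 250 bases were not searched.

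The bortezomib libraries of the same lines, which did not enter the choice of called genes apart from the filter on mean FPKM and the shared fit, gave 222 called genes between KO1 and KO2 (1.82%). Of these, 151 were called in vehicle too, which is 41.3% of the vehicle calls and 68.0% of the bortezomib calls. The difference had the same sign with bortezomib for 362 of the 366 vehicle calls (98.9%, against 69.5% of all genes tested). The 4 exceptions were SLC7A5P1, GAL3ST1, RP11-573D15.1 and SNORD19. CES1 stayed at 0 and 0.216 FPKM in KO1 and 16 and 33.8 in KO2 with bortezomib, and SPARC at 0.423 and 0.263 against 10.5 and 13.7. C3 was at 20.4 and 30.3 FPKM against 3.39 and 4.79. CXCL1 was at 119 and 291 FPKM in KO1 and 12.7 and 28.4 in KO2 with bortezomib, a difference of 3.22 (limma adjusted p = 0.000193), and CXCL3 at 52.8 and 59.8 against 7.94 and 10.5. CXCL2 differed by 2.51 with the drug and CXCL5 by 1.73. APOH (-0.24), HMOX1 (-0.18) and MIR196A1 (-0.17) had differences nearer 0 with the drug than in vehicle. No gene passed limma's test of the interaction of line and bortezomib (0 called, smallest adjusted p = 0.673, 280 genes at an unadjusted p under 0.05), so none of these changes with the drug was shown to differ from the vehicle value.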

How the data were processed

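RNA was measured in 12 A549 libraries (total RNA, column extraction, random hexamer cDNA, per the labels' protocols). The values deposited by the authors are FPKM per gene. CASAVA, STAR 2.5, HTSeq 0.6.1, DESeq2 and build hg19 are named in the submitters' processing notes, while positions in the deposited table are those of GRCh38: all 58676 gene IDs are in GENCODE 29, and 95.3% have the same start and end there. Coordinates are the table's own. Strand setting and annotation are not given in the sources used here. FPKM times gene length summed to 1000000 per library and gave whole reads for 100% of values (tolerance 0.05 reads), which gave the depths.

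Here log2(FPKM + 1) of 12194 genes was fitted under R 4.3.3 by limma 3.58.1 (linear model, contrasts, moderated variances with an intensity trend), with 6 group means and the title suffix (R1, R2 or none) as replicate block, and Benjamini-Hochberg adjustment over all genes. A gene was called at an adjusted p under 0.05. Differences on this scale understate changes of low genes. The replicate numbers pair libraries, since the difference between replicates was correlated across genes between every pair of groups, at 0.89 for KO1 and KO2 in vehicle and from 0.696 upward. No permutation test was made per gene, since 2 against 2 libraries allow no exact two-sided p below 0.333. In simulated data for this comparison on 12194 genes, the blocked fit recovered 128 of 200 genes changed 2-fold (7 false calls) and 197 changed 4-fold (19 false), and the fit without the block 0 and 24. The simulation gave all groups the same replicate effect and a fixed dispersion, and changed only genes above an FPKM floor. Those settings favour the blocked fit, and real replicate differences were less alike. The simulated counts therefore do not show which fit is right for the data.

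Named genes were NFE2L1, the 12 largest differences in each direction, called or extreme genes of 30 lists, genes near absent in 1 line, and the 3 most abundant genes of a region. Some results under this rule are not reported here. The comparison and the lists were chosen with earlier results of these data known, and a list's count is no independent support. Python 3.11.15, numpy 2.4.6, pandas 2.3.3, scipy 1.17.1 and matplotlib 3.10.9 were used for summaries and figures. Alternatives changed the block, libraries, pseudocount, filter, scaling or values (voom on recovered reads).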

Additional observations from a re-analysis of the deposited data

How the results depend on the processing

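The count of 366 genes called between KO1 and KO2 in vehicle depended most on the replicate block and on single libraries. It was 8 with no replicate block, 1077 with the block and only the 4 vehicle KO libraries (1 residual degree of freedom), 72 with no filter on low values, 709 by voom on recovered reads, and 55 to 285 when 1 library was left out. It was 229 without chromosomes 15, 18, 19, Y and the pseudoautosomal genes, and 197 with window or chromosome medians subtracted, both chosen after seeing the data. Quantile normalization moved the split from 172 higher and 194 lower to 170 and 153, rescaling to a common FPKM sum to 147 and 217, leaving out mitochondrial genes to 211 and 177, and leaving out KO1 R1 to 82 and 203. With bortezomib the 222 calls became 5 with no replicate block, 54 with no filter and 537 by voom. The 59 calls in gene lists became 1 with no replicate block, 135 in the 4 libraries, 12 with no filter, 104 by voom and 9 to 47 leaving out 1 library. Among genes of a mean FPKM of at least 5, the median was -0.26 on chromosome 15 (-0.20 over all tested genes), -0.23 on 19 (-0.18), 1.51 on the Y (1.26) and 0.78 in the pseudoautosomal region (0.67). A pseudocount of 0.1 in place of 1 gave 0.60 on chromosome 18 (0.47 in the main fit), 1.56 on the Y and 0.85 in the pseudoautosomal region. By voom these were 0.61, 1.64 and 0.85. The mean over genes in place of the median gave -0.20 on 19 and 0.80 in that region. No named gene changed sign. Of 78 named genes 71 lost their call without the block, and 22 to 53 when 1 library was left out. The cause of these changes was not tested. Depth limited genes with a few reads, such as MIR196A1.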
